A study of Homo sapiens with 6 samples.

Results

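The 10 tubulin genes TUBA1A, TUBA1B, TUBA1C, TUBA4A, TUBB, TUBB2A, TUBB3, TUBB4B, TUBB6 and TUBG1 were followed by symbol among the 58735 genes of the count table, and all 10 were found. They are 4 alpha-tubulins, 5 beta-tubulins and 1 gamma-tubulin. The series measured RNA of HuCCT1, an established human cholangiocarcinoma (bile duct cancer) cell line, in 6 libraries. The siC1QBP group holds 3 libraries, whose cells received a small interfering RNA that targets C1QBP, and the siNC group 3 libraries of the same line, labelled wild type and treated with siNC, taken here as the control because the labels contrast it with siC1QBP. No other allele, agent or time separates the groups in the labels. The submitters' stated question is the role of C1QBP, a mainly mitochondrial multifunctional protein, in the growth of these tumour cells.

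Alpha- and beta-tubulin pair into the dimers that build microtubules, the tracks of transport in resting cells and the spindle of dividing cells. Gamma-tubulin sits in ring complexes that start new microtubules. Cells hold free tubulin dimers in check by autoregulation: when dimers are in excess, the adaptor TTC5 recognises the first residues of a nascent alpha- or beta-tubulin on the ribosome and, through SCAPER, brings the CCR4-NOT deadenylase to the mRNA, which is then degraded. In epithelial cells such as cholangiocytes TUBA1B, TUBA1C, TUBB and TUBB4B are the usual abundant isotypes, while TUBB3 is best known from neurons.

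The first 30 coding bases of all 10 members are shown, with the first 4 codons in capitals. In the alpha and beta genes, but not in TUBG1, these codons encode the residues read in autoregulation. They come from the principal transcripts of GENCODE release 29, 5′ to 3′.
TUBA1A: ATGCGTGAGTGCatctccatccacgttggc
TUBA1B: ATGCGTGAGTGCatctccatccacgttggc
TUBA1C: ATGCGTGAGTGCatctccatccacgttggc
TUBA4A: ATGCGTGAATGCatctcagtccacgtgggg
TUBB: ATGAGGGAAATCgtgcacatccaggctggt
TUBB2A: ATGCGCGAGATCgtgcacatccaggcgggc
TUBB3: ATGAGGGAGATCgtgcacatccaggccggc
TUBB4B: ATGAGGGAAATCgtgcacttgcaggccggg
TUBB6: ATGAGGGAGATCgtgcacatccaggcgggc
TUBG1: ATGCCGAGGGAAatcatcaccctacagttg
The 4 alpha genes encode the same 4 residues with 2 different codings, and the 5 beta genes share another 4 residues with 3 codings. TUBG1 starts with other residues. The 30 bases of TUBA1A, TUBA1B and TUBA1C are identical, and over the whole coding sequence these genes match at 95.9% to 97.2% of positions. Among the beta genes the match is 80.9% to 87.7%.

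Total counts were 17122252 to 20416243 per library, and levels are given in CPM, the usual unit of counts relative to library size, here with TMM-adjusted sizes. A count of 0 allows a level of up to 0.147 to 0.175 CPM, that of 3 counts, covering counting error only. C1QBP stood at 57.6 to 60.0 CPM in siC1QBP and 175 to 185 CPM in siNC libraries. Biliary epithelial markers summed to 7913 to 8288 CPM in siC1QBP and 8717 to 9205 CPM in siNC libraries, all 10 detected. Of them 2 were called lower and 1 higher, against 7.84% and 6.47% of all tested genes (14.3% either way). Without siC1QBP replicate 1, 3 of them were called lower and 1 higher, beside 1473 and 1134 of all 15530 tested genes. The 13 markers of immune, endothelial, fibroblast, liver and nerve cells summed to 14.5 to 17.1 against 11.9 to 14.2 CPM, with CD3E and TTR at 0 throughout and 0 of the 5 tested called (LUM was called higher, at 0.46, without siC1QBP replicate 1); the part of either difference in the tubulin values was not tested. The first siC1QBP library was the least like its group (chi-square per degree of freedom 6.66 and 6.77 against the others, which differed by 2.09). Values without it stand beside the tubulin genes whose calls it moves and the lists whose number of calls it moves. Mitochondrially encoded genes took 4.20% to 4.80% of counts in siC1QBP and 3.66% to 3.88% in siNC libraries, and 25001 to 25506 against 23395 to 23841 genes had a count; without the mitochondrial genes the same 4 tubulin genes were called, and the number of genes detected was not tested against the tubulin values. The labels do not say whether replicates came from separate cultures; the p-values reflect the variation among these 6 libraries, which may be technical.

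Some tubulin mRNAs were lower after C1QBP knockdown. TUBA1B, TUBB4B, TUBB2A and TUBB6 fell, by 0.25 to 0.32 on the log2 scale, to about 80% to 84% of control. TUBB, TUBA1C, TUBA4A and TUBG1 were lower by 0.08 to 0.12 and did not pass the test, and TUBA1A and TUBB3 overlapped between the groups. Thus 4 of 10 members fell and 0 rose at an edgeR adjusted p under 0.05, against 7.84% of all 15530 tested genes called lower, 6.47% called higher and 14.3% called either way. The median log2 fold change of the 10 was -0.11, beside 0.003 for all tested genes. In 8 of the 10 the siC1QBP and siNC ranges did not overlap, as in 32.6% of all tested genes. Of the 10, 9 passed the low-count filter in either group; TUBB3 passed it through the siC1QBP libraries. Only bulk RNA was measured, so fewer cells of one kind and less RNA per cell cannot be told apart.

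**Figure D1:**
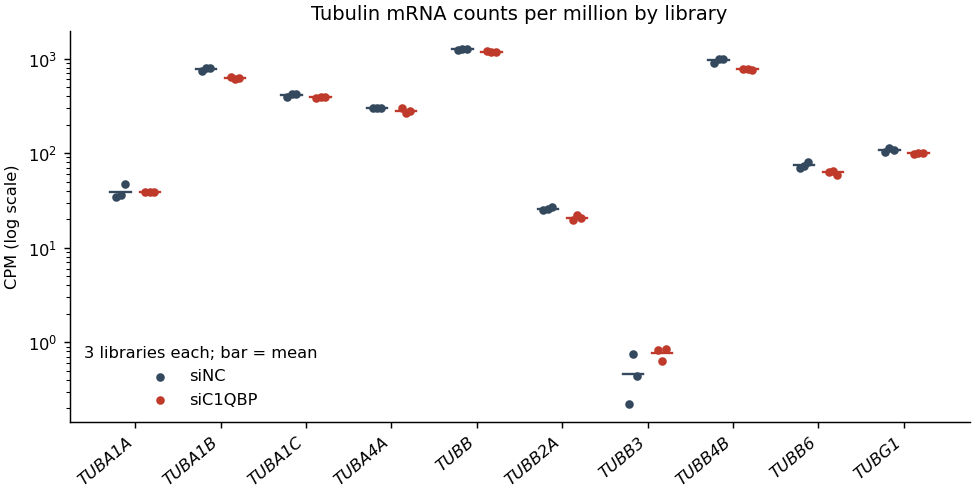
CPM of the 10 tubulin genes in each library on a log scale, with siNC in dark blue and siC1QBP in red; points are the 3 libraries of a group and bars their means. TUBB, TUBB4B and TUBA1B are the highest, and TUBB3 lies below 1 CPM in every library.

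Among the alpha-tubulins, TUBA1B (ENSG00000123416; hg38 chromosome 12, 49127782 to 49131397, minus strand), the main alpha isotype of proliferating cells, had 630, 609 and 625 CPM in the siC1QBP libraries and 736, 797 and 795 CPM in the siNC libraries. Every siC1QBP library lay well below every siNC library. The means were 621 ± 10.5 and 776 ± 34.9 CPM (SD, n = 3 each). TUBA1B fell by 0.32 (SE 0.04; edgeR adjusted p = 0.000122), to 80.1% of control (95% interval 75.6% to 84.8%).

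TUBA1C (ENSG00000167553; chromosome 12, 49188736 to 49274603, plus strand), a close relative at the same locus, had 385, 392 and 396 CPM with siC1QBP and 396, 420 and 421 CPM with siNC. The groups nearly touched, at 396 CPM, without overlapping. The log2 fold change was -0.08 (95% interval -0.16 to 0.00; edgeR adjusted p = 0.227), so TUBA1C did not pass.

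TUBA4A (ENSG00000127824; chromosome 2, 219249711 to 219278170, minus strand), which differs from the others in lacking an encoded terminal tyrosine, had 297, 268 and 279 CPM with siC1QBP and 299, 302 and 303 CPM with siNC. Its siC1QBP replicate 1 lay almost at the control level and replicates 2 and 3 below it. The log2 fold change was -0.10 (95% interval -0.19 to -0.01; edgeR adjusted p = 0.145). Without siC1QBP replicate 1, TUBA4A was called lower, at -0.14 (edgeR adjusted p = 0.00692).

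TUBA1A (ENSG00000167552; chromosome 12, 49184796 to 49189324, minus strand), the alpha isotype prominent in neurons, had 38.8 CPM in each of the 3 siC1QBP libraries and 34.4, 36.0 and 46.6 CPM with siNC. The siC1QBP value lay inside the siNC range, in which replicate 3 was the high library. The log2 fold change was 0.00 (95% interval -0.18 to 0.17; edgeR adjusted p = 0.980), and 0.14 without siNC replicate 3 (edgeR adjusted p = 0.279).

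Among the beta-tubulins, TUBB4B (ENSG00000188229; chromosome 9, 137241213 to 137243707, plus strand), a widely expressed isotype also found in cilia, had 781, 780 and 750 CPM with siC1QBP and 900, 997 and 997 CPM with siNC. The groups were clearly apart, with siNC replicate 1 the lowest control. The means were 770 ± 17.5 and 965 ± 56.3 CPM (SD, n = 3 each). TUBB4B fell by 0.32 (SE 0.04; edgeR adjusted p = 0.00018), to 79.8% of control (95% interval 75.1% to 84.9%).

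TUBB (ENSG00000196230; chromosome 6, 30720201 to 30725426, plus strand), the main beta isotype of dividing cells, had 1191, 1174 and 1185 CPM with siC1QBP and 1234, 1247 and 1260 CPM with siNC. All siC1QBP libraries lay below all siNC libraries, by a narrow margin. The log2 fold change was -0.08 (95% interval -0.15 to 0.00; edgeR adjusted p = 0.179), which did not pass. Without siC1QBP replicate 1 it was -0.08 and passed (edgeR adjusted p = 0.0449).

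TUBB2A (ENSG00000137267; chromosome 6, 3153669 to 3157526, minus strand), a minor isotype here, had 19.6, 22.2 and 20.6 CPM with siC1QBP and 25.0, 25.8 and 26.6 CPM with siNC. The groups did not overlap. TUBB2A fell by 0.31 (SE 0.08; edgeR adjusted p = 0.0134); the call was lost without siNC replicate 2 (0.0552) or 3 (0.0684; edgeR adjusted p).

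TUBB6 (ENSG00000176014; chromosome 18, 12307669 to 12344320, plus strand), a divergent isotype that can loosen microtubule arrays, had 62.9, 65.4 and 59.3 CPM with siC1QBP and 70.2, 72.6 and 80.3 CPM with siNC. The groups lay apart, with siNC replicate 3 the highest. TUBB6 fell by 0.25 (SE 0.06; edgeR adjusted p = 0.0121). The call was lost without siC1QBP replicate 3 (0.0592) or siNC replicate 3 (0.0949; edgeR adjusted p).

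TUBB3 (ENSG00000258947; chromosome 16, 89921392 to 89938761, plus strand) had 15, 11 and 16 counts with siC1QBP and 4, 15 and 8 counts with siNC, all under 1 CPM. The groups overlapped through siNC replicate 2. The log2 fold change of 0.70 had a 95% interval of -0.18 to 1.58 (edgeR adjusted p = 0.333), so at this depth neither a rise nor a fall was detectable. The table may also hold too few TUBB3 reads: 35.8% of its exonic bases are shared, on the same strand, with AC092143.1, a gene model with 0 counts in all libraries, and how reads shared by genes were counted is not given in the sources used here.

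The gamma-tubulin TUBG1 (ENSG00000131462; chromosome 17, 42609676 to 42615234, plus strand) had 98.1, 99.5 and 99.6 CPM with siC1QBP and 103, 112 and 108 CPM with siNC. The groups did not overlap. The log2 fold change was -0.12 (95% interval -0.22 to -0.03; edgeR adjusted p = 0.109), which did not pass.

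**Figure D2:**
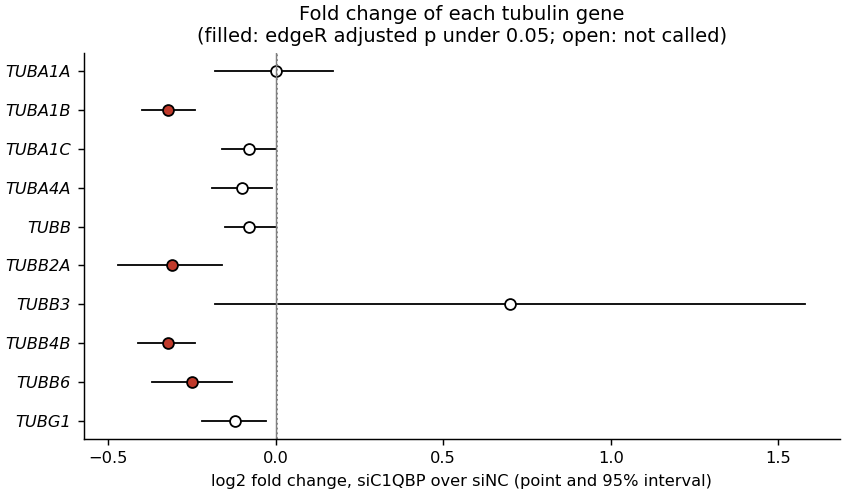
Log2 fold change of each tubulin gene, siC1QBP over siNC, with its 95% interval; filled points passed an edgeR adjusted p of 0.05 and the dotted line is the median of all tested genes. TUBA1B, TUBB2A, TUBB4B and TUBB6 lie between -0.32 and -0.25, while the interval of TUBB3 runs from -0.18 to 1.58.

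TUBA1B and TUBB4B were the members called in every alternative and with each library left out. Across those fits TUBA1B ranged from -0.36 to -0.29 and TUBB4B from -0.37 to -0.25. The number of members called lower was 2 without siNC replicate 3, these 2 genes, and 6 without siC1QBP replicate 1, with TUBA4A and TUBB added.

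**Figure D3:**
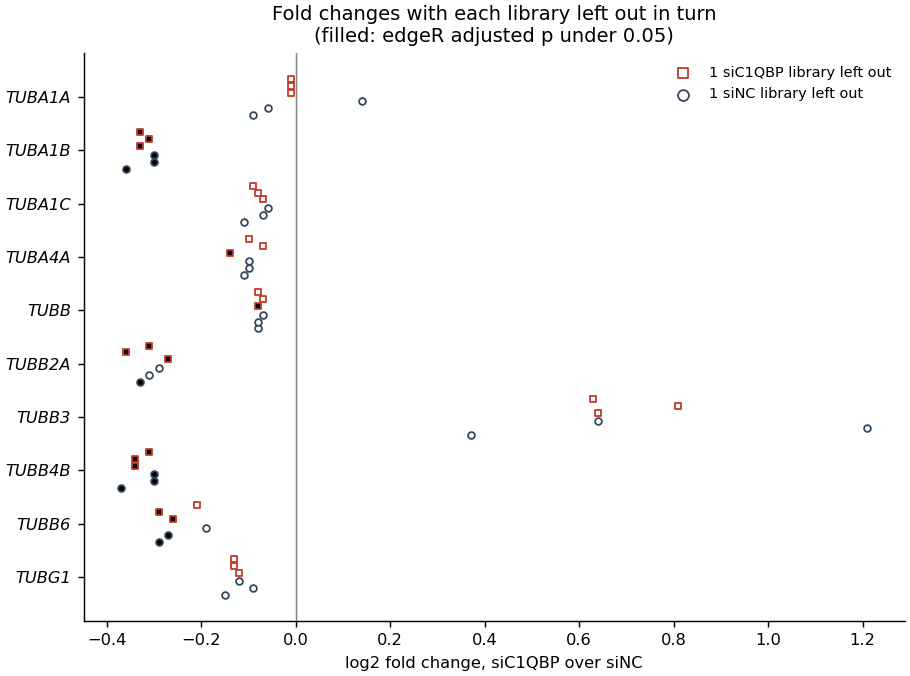
Log2 fold changes of the tubulin genes with each library left out in turn, red-edged squares for a siC1QBP and blue-edged circles for a siNC library left out; filled symbols passed an edgeR adjusted p of 0.05. TUBA1B and TUBB4B stay filled in all 6 fits, and TUBA1A crosses to 0.14 without siNC replicate 3.

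Levels of different genes were compared as CPM per kilobase of the exonic gene length. In siNC cells TUBB4B was highest at 457 ± 26.7, followed by TUBB at 371 ± 3.95, TUBA1B at 217 ± 9.76, TUBA1C at 89.1 ± 3.08 and TUBA4A at 73.9 ± 0.51 CPM per kilobase (SD, n = 3). TUBG1 at 44.7 ± 1.77, TUBB6 at 18.1 ± 1.28, TUBB2A at 14.9 ± 0.464, TUBA1A at 11.4 ± 1.93 and TUBB3 at 0.105 ± 0.0595 followed. No neighbours in this order overlapped between siNC libraries. The order of close neighbours depends on the length used: per kilobase of the principal transcript, TUBA1B (477 ± 21.4) came before TUBB (467 ± 4.96), with overlapping ranges, TUBA4A (139 ± 0.961) before TUBA1C (138 ± 4.75), and TUBA1A (20.4 ± 3.45) before TUBB2A (16.2 ± 0.503).

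The summed CPM of the 10 members was 3503, 3449 and 3453 in siC1QBP and 3797, 4011 and 4039 in siNC libraries. The groups did not overlap, and the siC1QBP mean was 87.8% of the siNC mean. Alpha and beta members fell short by similar amounts, with sums of 1332 ± 21.4 against 1529 ± 55.4 CPM for alpha (87.1%) and 2037 ± 19.6 against 2312 ± 73.0 CPM for beta (88.1%; SD, n = 3). Per kilobase, the ratio of beta to alpha was 2.20 ± 0.0455 with siC1QBP and 2.20 ± 0.00166 with siNC. These sums are descriptions without a test.

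Within each family the most reduced isotype was also a leading one, so its share was smaller. TUBA1B made up 51.3%, 51.3% and 51.4% of alpha CPM per kilobase in siC1QBP and 54.9%, 56.0% and 55.4% in siNC libraries. TUBA1C was at 24.9% ± 0.668 against 22.8% ± 0.0887, and TUBA4A at 20.3% ± 0.741 against 18.9% ± 0.585 (SD, n = 3). TUBB4B made up 49.2%, 49.4% and 48.4% of beta in siC1QBP and 51.7%, 53.9% and 53.5% in siNC libraries. TUBB took 47.3% ± 0.658 against 43.1% ± 1.20, while TUBB6 (2.04% against 2.10%) and TUBB2A (1.62% against 1.73%) overlapped between groups, as did TUBA1A among alpha (3.35% against 2.91%).

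**Figure D4:**
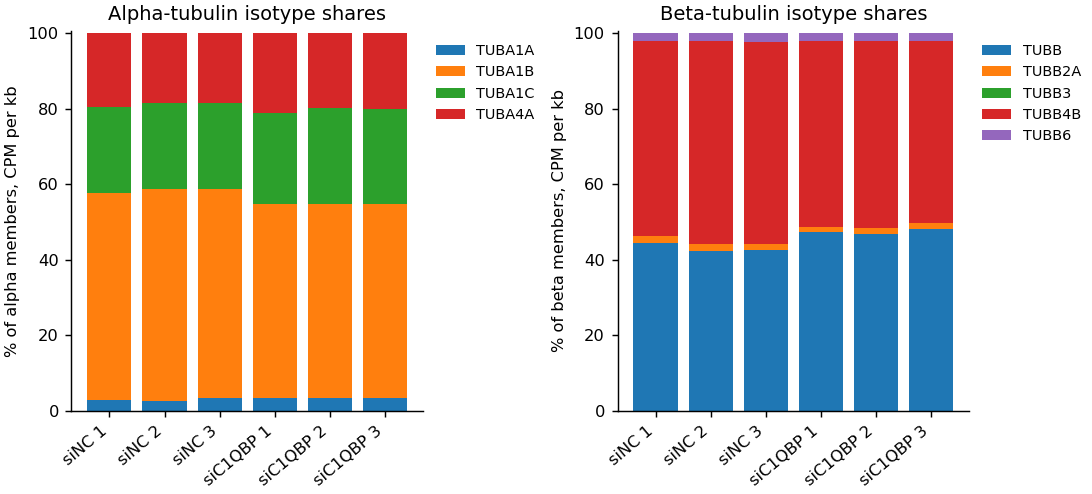
Share of each isotype in the summed CPM per kilobase of its family, by library, alpha on the left and beta on the right. The TUBA1B share is 51.3% to 51.4% with siC1QBP and 54.9% to 56.0% with siNC; TUBB3, at most 0.0258%, is too thin to see.

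Differences between isotypes were tested as log2 ratios to the family's most counted gene, 7 ratios in all. Against TUBB, TUBB4B was at -0.62 ± 0.04 with siC1QBP and -0.37 ± 0.07 with siNC, a difference of -0.25, lower in 3 of 3 libraries. Against TUBA1B, TUBA1C was 0.24 and TUBA4A 0.22 higher with siC1QBP, again without overlap. Of the 7 ratios, 6 did not overlap between groups, each with an exact two-sided permutation p = 0.1, the smallest that 3 against 3 allows (adjusted over the 7, 0.117), so no ratio could pass 0.05. The exception was TUBB3 against TUBB (exact permutation p = 0.2). Among single tested genes, CPM ranges did not overlap in 32.6%, and the share for ratios between genes was not computed. The alpha ratios share TUBA1B, which fell, as their denominator, so they are not separate results.

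Near-identical copies limit how exactly reads can be assigned. Of the 100-base words of the principal transcript, 37.2% for TUBA1B, 18.3% for TUBA1A and 11.5% for TUBA1C also occur in transcripts of another gene, mostly of each other. For TUBB2A it was 56.4%, chiefly TUBB2B, and for TUBB3 89.0%. TUBB4B (2.86%), TUBB (5.10%), TUBA4A (1.84%) and TUBB6 (0.00%) have sequence largely of their own, and TUBG1 shares 14.9%, with TUBG2. TUBA1B and TUBB2A are therefore uncertain in level, while TUBB4B and TUBB6, which also fell, are less exposed. Opposite-strand genes overlap up to 36.6% of exonic bases (TUBA1B with AC011603.2, 7 counts over all libraries), and 20.3% of TUBB6 overlaps AFG3L2, which had 6103 counts. The overlap was 14.3% for TUBA1A with TUBA1C (44684 counts), 15.4% for TUBA4A with STK16 (2201) and 5.77% for TUBG1 with RETREG3 (6682). The strand setting of the counts is not given, and the part of these partners in the tubulin values was not tested. The 38 tubulin pseudogenes together drew 0.250% to 0.322% of the members' CPM in a library.

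Fold changes in these libraries also moved with gene length, and the members are of middle to short length, from 1727 bases (TUBB2A) to 4631 bases (TUBA1C). With all tested genes in 5 length bins of 3106, the median log2 fold change was -0.04 in the shortest bin, which holds TUBB2A and TUBB4B, and also -0.04 in the next, with TUBA1A, TUBA1B, TUBB and TUBG1. It was -0.01 in the middle bin, with TUBA1C, TUBA4A, TUBB3 and TUBB6, and 0.06 in the longest. Genes called lower numbered 354 in the shortest bin, 360 in the next, 243 in the middle, then 161, and 99 in the longest. The share called lower in the shortest and next bins was thus above the 7.84% of all tested genes. With each library's length trend removed, the same 4 members were called lower, with smaller changes. They were -0.29 for TUBA1B, -0.25 for TUBB4B, -0.24 for TUBB2A and -0.23 for TUBB6.

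Of the 12 other tubulin genes, 6 passed the low-count filter and 0 of these were called by edgeR, against 14.3% of all tested genes. In a list this small, 0 calls differ little from that share. DESeq2 also called 0. Only TUBG2 had an unadjusted edgeR p under 0.05, a cut whose share of all tested genes is not given here. Without siC1QBP replicate 1, TUBG2 was called higher, at 0.37. The highest was the second gamma-tubulin TUBG2, at 15.6, 19.2 and 21.7 CPM with siC1QBP and 13.9, 16.7 and 16.7 CPM with siNC (log2 fold change 0.26, 95% interval 0.03 to 0.48; edgeR adjusted p = 0.147). TUBB2B, the near copy of TUBB2A, had 4.28 ± 0.438 and 3.97 ± 0.434 CPM (SD, n = 3; log2 fold change 0.11). The brain isotype TUBB4A had 0 counts in all libraries.

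In the autoregulation machinery no gene passed the test: of 13 genes for TTC5, SCAPER and CCR4-NOT, 0 were called by edgeR, against 14.3% of all tested genes, with a median of -0.02. DESeq2 also called 0. SCAPER (0.26, edgeR adjusted p = 0.124), CNOT4 (0.20, 0.129) and CNOT11 (-0.18, 0.0594) had an unadjusted edgeR p under 0.05. The share of all tested genes at that cut is not given here. TTC5, the reader of nascent tubulin, had 12.9 ± 0.131 CPM with siC1QBP and 13.6 ± 0.717 CPM with siNC (log2 fold change -0.08, SE 0.10). CNOT1, the scaffold of the complex and the most counted of the list, had 262 ± 22.7 and 255 ± 13.8 CPM (SD, n = 3).

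Of 23 listed genes for folding tubulin (24 table rows, as TBCE has 2), 11 fell and 0 rose, with a median of -0.12; of all tested genes 7.84% were called lower. The prefoldin subunits PFDN6 and PFDN4, which hand new chains to the CCT chaperonin, fell by 0.61 (SE 0.09; edgeR adjusted p = 0.000319) and 0.65 (SE 0.10; 0.000555). PFDN6 had 38.6 ± 6.01 CPM with siC1QBP and 58.9 ± 4.25 CPM with siNC, and PFDN4 had 23.6 ± 2.05 and 37.0 ± 5.91 CPM (SD, n = 3). The chaperonin subunit CCT7 fell by 0.20 (SE 0.04). The count of 11 was 7 without siC1QBP replicate 2 or siNC replicate 1, 3 without siNC replicate 2 or 3, 6 with library size as the only scaling and 7 with the length trend removed.

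In the gamma-tubulin ring and its anchors, 2 of 20 genes fell and 1 rose, a share near the 14.3% of all tested genes, with a median of -0.02. The ring proteins MZT2A and MZT2B, near-identical copies whose reads may be split, fell by 0.43 (SE 0.09) and 0.49 (SE 0.12). Both were lowest in siC1QBP replicate 1, at 55.1 and 28.6 CPM. DESeq2 did not call MZT2B (DESeq2 adjusted p = 0.086), and without siNC replicate 2, 0 of the 20 were called. Without siC1QBP replicate 1, TUBGCP6 was called higher (0.28) and HAUS6 lower (-0.17) as well. The centrosome scaffold PCNT rose by 0.16, a call that did not hold in 5 of the 6 fits with a library left out. Its edgeR adjusted p was 0.0888 without siC1QBP replicate 2, 0.0873 without siC1QBP replicate 3, and 0.0712, 0.0585 and 0.187 without siNC replicates 1, 2 and 3. It was 0.182 with the length trend removed and 0.0684 with DESeq2. Of 17 tested enzymes that modify tubulin, 0 were called by edgeR or DESeq2, with a median of 0.08. TTLL3, TTLL4 and HDAC6 had an unadjusted edgeR p under 0.05, a cut whose share of all tested genes is not given here. TTLL4 was called higher with library size only (0.20), upper quartile scaling (0.20), at least 10 CPM (0.19) and protein-coding genes only (0.18). It was also called without siC1QBP replicate 3 (0.21). HDAC6 was called higher with at least 10 CPM (0.18) and without siC1QBP replicate 1 (0.19). TTLL12, the most counted, had 198 ± 10.1 and 200 ± 7.23 CPM. The tyrosine ligase TTL was at -0.04 (SE 0.06).

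Among 29 proteins that bind microtubules, 2 rose and 3 fell, 17.2% called against 14.3% of all tested genes. MAP1B, a stabilising protein, rose from 116 ± 2.93 to 147 ± 7.30 CPM (log2 fold change 0.34, SE 0.05; edgeR adjusted p = 0.000236), and TPPP, which bundles microtubules, from 2.32 ± 0.299 to 4.96 ± 0.662 CPM (1.09, SE 0.19). STMN1, the stathmin that holds free tubulin dimers, fell by 0.16 (SE 0.04), STMN3 by 0.33 (SE 0.09) and GTSE1 by 0.19 (SE 0.05). The number of falls was 0 without siNC replicate 2 or 3 and 1 without siC1QBP replicate 3, and 5 with the length trend removed. Without siC1QBP replicate 1 it was 4, with STMN3 not called (edgeR adjusted p = 0.0531). The number of rises was 8 with library size only, 4 with the length trend removed, 5 without siC1QBP replicate 1 and 4 without siNC replicate 1. MAP1S, CLIP1, CAMSAP2 and NUMA1 were also called higher with upper quartile scaling, with at least 10 CPM and with protein-coding genes only.

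Of 36 mitotic genes, 15 fell and 0 rose, with a median of -0.14, where 7.84% of all tested genes were called lower. The spindle kinesin KIFC1 had 89.6, 84.3 and 87.4 CPM with siC1QBP and 108, 108 and 113 CPM with siNC, and fell by 0.34 (SE 0.05; edgeR adjusted p = 0.0003). CDC20, an activator of the anaphase-promoting complex, fell by 0.33 (SE 0.05), and ANLN, a scaffold of the cytokinetic ring, by 0.29 (SE 0.04). The count of 15 was 9 without siC1QBP replicate 2, 10 without siC1QBP replicate 3 and 11 without siNC replicate 1, 2 or 3. It was 21 without siC1QBP replicate 1. With library size only it was 12, with the length trend removed 13, with DESeq2 16 and with the replicate block 19.

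**Figure D5:**
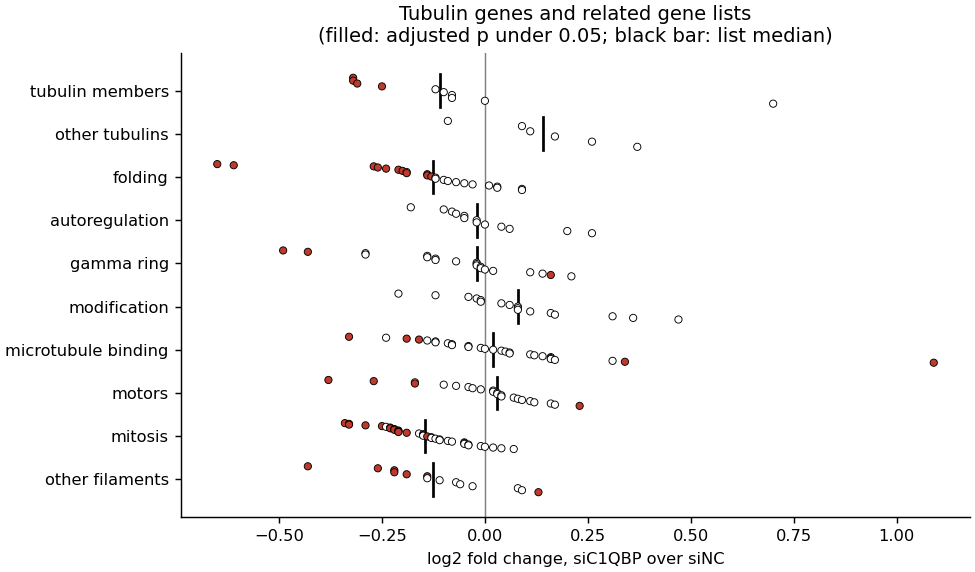
Log2 fold changes of the tested tubulin genes and of 9 related gene lists; each point is a gene, filled where the edgeR adjusted p is under 0.05, and black bars are list medians. The medians of the tubulin (-0.11), folding (-0.12), mitosis (-0.14) and other filament (-0.12) lists lie left of 0. Those of autoregulation and gamma ring are at -0.02. Those of other tubulins (0.14), modification (0.08), motors (0.03) and microtubule binding (0.02) lie right of 0.

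By Pearson correlation of log2 CPM over the 6 libraries, the 5 protein-coding genes most like the members' summed level, of 10525 with at least 5 CPM, were PDLIM4, HNRNPUL1, LYSMD2, URM1 and UTP18 (r of 0.998 to 0.999). All libraries share depth and the group difference, and 777 genes had an r over 0.9, so the likeness is a description. PDLIM4, a protein of actin filaments, went from 48.0, 53.0 and 54.1 CPM with siNC to 42.1, 41.1 and 41.4 CPM with siC1QBP, with siNC replicate 1 the lowest control, as for TUBB4B.

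The start regions of all 10 members were matched in RefSeq (GRCh38.p14; 250 bases before to 50 after each start, 15 windows). The letters CCAAT, the core of the NF-Y site, were searched on both strands. They stood in 9 of the 15 windows, against 34.6% of all 35116 such windows. Of 3 other motifs searched the same way, GGGCGG stood in 9 of the 15 windows (45.0% of all), TTTGAA in 4 (15.2%) and TATAAA in 1 (11.5%). Some windows of TUBA1C overlap and hold the same match. TUBB4B and TUBB6, which fell, and TUBB, TUBA1C, TUBA1A, TUBB3 and TUBG1, which did not pass, held the letters, while TUBA1B and TUBB2A, which fell, and TUBA4A had no match in their windows.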

How the data were processed

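RNA-seq of 6 HuCCT1 libraries (3 siC1QBP, 3 siNC) was analysed. The deposited table holds raw counts, whole numbers for each gene with no normalization. The submitters' processing notes name hg38; which aligner, counter and strand setting made the counts is not given in the sources used here. Per the labels' protocols the library kit marks strand. Every one of the 58735 gene identifiers was found in GENCODE release 29 at the same coordinates, and the deposited gene length equalled the summed exonic bases for the members. Counts were fitted with edgeR 4.0.16 (R 4.3.3), quasi-likelihood, TMM scaling, filterByExpr, treatment as sole term, and Benjamini-Hochberg adjustment over 15530 tested genes; an adjusted p under 0.05 was a call. SE is the log2 fold change over the root of F; 95% intervals are normal. In simulated data of 15530 genes, among genes of at least 5 CPM 54% of those changed 1.25-fold, 96% changed 1.5-fold and 100% changed 2-fold were called. The simulation changed 50 genes at each fold and gave 186 calls, against 2222 here. Its shares may therefore differ from the power in these libraries. Alternatives were DESeq2 1.42.0, limma-voom 3.58.1, other scalings, filters and thresholds, gene-length trend removal, each library left out and a replicate block. The members, the 11 gene lists and their naming rule (per list, up to 3 called genes each way by smallest p, or the most counted gene if none) were chosen with earlier results of these data known. TTC5, SCAPER, CNOT4, CNOT11, TTL, TUBB2B, TUBB4A, TTLL3, TTLL4, HDAC6, LUM, TUBGCP6, HAUS6, MAP1S, CLIP1, CAMSAP2, NUMA1 and AC092143.1 were named outside that rule after their values were seen. The overlap partners AC011603.2, AFG3L2, STK16 and RETREG3, and the markers CD3E and TTR, were also named outside it. Python 3.11.15 and scipy 1.17.1 gave exact permutation tests and sequences. Some sequences are not reported here.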

Additional observations from a re-analysis of the deposited data

How the results depend on the processing

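The count of 4 tubulin genes called lower was 2 at an adjusted p under 0.01 and 2 to 6 with 1 library left out; it was 4 with DESeq2, limma-voom, all scalings and filters, the length trend removed and the replicate block, and 0 rose in each of these. The 2222 genes called over the table were 1057 at an adjusted p under 0.01 and 1090 to 2607 with 1 library left out; library size as the only scaling turned 1005 higher and 1217 lower into 1253 and 908. TUBA1A, called nowhere, had a log2 fold change of 0.02 with library size only, upper quartile scaling or at least 10 CPM, 0.00 with protein-coding genes only or the replicate block, 0.03 with the length trend removed, 0.01 with limma-voom and -0.09 to 0.14 with 1 library left out, the latter without siNC replicate 3; the cause was not tested. Same-numbered libraries had deviations correlated at -0.009 to 0.043, and differently numbered ones at -0.048 to 0.021. Replicates 1 and 2 of siC1QBP correlated best with their own number, and replicate 3 did not. Whether the numbers pair the libraries cannot be told from these small values. With the replicate block 3092 genes and the same 4 tubulin genes were called. TUBG2 (0.25) and TTLL4 (0.17) were then also called higher, CNOT11 (-0.18) lower and 9 rather than 2 microtubule-binding genes higher. The summed tubulin level was 86.2% to 89.4% of siNC with library size only, with 1 library left out and per kilobase, the alternatives run for it, and lengths of principal transcripts, added after seeing the data, moved the TUBA1B share from 55.4% to 61.6% (siNC) and 51.4% to 57.7% (siC1QBP) and the ratio of beta to alpha from 2.20 to 1.43. Depth limits TUBB3, with 4 to 16 counts a library; a filter of at least 10 CPM left it untested and DESeq2 gave it no adjusted p.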

Other observations

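Among 24 listed subunits of interphase kinesin and dynein motors, 23 were tested, 3 fell and 1 rose (median 0.03), 17.4% called against 14.3% of all tested genes. The dynein light chain DYNLL1 had 134, 154 and 154 CPM with siC1QBP and 188, 195 and 190 CPM with siNC, a fall of 0.38 (SE 0.05; edgeR adjusted p = 0.00023). DYNLT1, another light chain, fell by 0.27 (SE 0.08) and the kinesin light chain KLC2 by 0.17 (SE 0.05), while KIF1B, a kinesin that carries organelles, rose by 0.23 (SE 0.05). The count of falls was 1 when siNC replicate 2 or 3 was left out and also under library size scaling, and the rise was not called with the length trend removed. Without siC1QBP replicate 1 the count of falls was 4, with DYNLT1 not called (edgeR adjusted p = 0.0782).

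In the other filament systems, 6 of 14 genes fell and 1 rose (median -0.12), beside 7.84% lower and 6.47% higher of all tested genes. The count of falls was 8 without siC1QBP replicate 1 and 4 without siNC replicate 2 or 3. KRT7, a biliary keratin, fell by 0.26 (SE 0.04), the actin-binding profilin PFN1 by 0.43 (SE 0.06) and lamin LMNB2 by 0.22 (SE 0.04). PFN1 was lowest in siC1QBP replicate 1, at 508 CPM, against 604 and 617 CPM in replicates 2 and 3. ACTB, a main actin of non-muscle cells, had 4236 ± 92.1 CPM with siC1QBP and 3879 ± 32.6 CPM with siNC (SD, n = 3), a rise of 0.13 (edgeR adjusted p = 0.0231). That call did not hold in the fits leaving out siC1QBP replicate 3 (0.0788) or siNC replicate 1 (0.0542), 2 (0.0948) or 3 (0.123; edgeR adjusted p).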
